A study of Mus musculus with 3 samples.

Results

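Smad3 peaks that lay far from any gene start and carried no JMJD3 peak made up 7878 of the 98086 Smad3 peaks, or 8.03% (95% CI 7.86 to 8.20), and of 161240 peaks listed for Smad3 and JMJD3 together. They were chosen by position from the deposited Smad3 peak list, on the listed distance and on overlap with the listed JMJD3 peaks, so both are descriptions. A peak was included when its midpoint was more than 50 kb from the closest transcription start site (TSS), when the midpoint fell outside the gene of that TSS, and when it shared 0 bp with any listed JMJD3 peak. The peaks come from chromatin immunoprecipitation and sequencing (ChIP-seq) of endogenous Smad3 and JMJD3 in wild-type mouse neural stem cells, which had been dissected from E12.5 cerebral cortex and grown with EGF and FGF. All cells had TGFb at 5 ng/ml, for 30 minutes in both immunoprecipitations according to the series text. Each antibody has 1 library, whose peak list was used. A library made without antibody was not used here. There are thus no replicates, so no difference was tested, and as no untreated cells were compared, no value shows an effect of TGFb. The intervals given cover counting error only, and since the lists carry no height, p-value or read number, the depth behind each peak is unknown.

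Smad3 is the transcription factor that enters the nucleus after activation of the TGF-beta receptor and binds DNA weakly by itself, mostly beside other factors that differ between cell types. JMJD3 is the demethylase that removes the repressive methyl marks from lysine 27 of histone H3. Distal elements such as enhancers can act on a start site over long distances and past other genes, so the closest gene is a name for a place and not an assigned target.

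The label "intergenic" holds only against the closest gene. Of the 7878 peaks, 1758 (22.3%, 95% CI 21.4 to 23.3) had their midpoint inside some other transcript span named in the files, against 2666 of 12307 (21.7%) among the remote peaks with JMJD3. For 172 members (2.18%) and 181 remote peaks with JMJD3 (1.47%), a span of that kind belonged to a longer transcript of the closest gene itself. Likewise, "without JMJD3" means that no listed JMJD3 peak shared a base. A JMJD3 peak lay within 1 kb of 1346 of them (17.1%), and 297 (3.77%) belonged to a stretch of touching Smad3 peaks in which another peak did overlap JMJD3.

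The rule has no wide margin at its limits. The closest member lay 50017 bp from a TSS, and the closest peak left out by distance alone lay at 49995 bp. Within 1 kb of the limit, 100 peaks were inside and 102 outside. On the side of JMJD3, 35 remote peaks were left out for an overlap of 1 to 10 bp, and 55 members had at most 10 bp between them and a JMJD3 peak.

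The sequence under the peaks was not read, because no genome of the files' build (mm9) was used here. To show start sites from which these distances run, promoters are given for some of the 20 genes with most member regions. Predicted genes and microRNAs are left out of these 20. Promoters were kept for genes with 1 RefSeq promoter and a span equal within 5 bp in the files and in the later annotation, which left 3. Each has 300 bases, from 250 before the start to 50 after it, read 5′ to 3′. Capitals mark matches to CAGAC, the Smad box, on either strand (GTCTG on the other) and to TGANTCA, an AP-1 motif whose other strand reads the same.
Egln3, GRCm38.p6 chr12:54203825-54204124, minus strand: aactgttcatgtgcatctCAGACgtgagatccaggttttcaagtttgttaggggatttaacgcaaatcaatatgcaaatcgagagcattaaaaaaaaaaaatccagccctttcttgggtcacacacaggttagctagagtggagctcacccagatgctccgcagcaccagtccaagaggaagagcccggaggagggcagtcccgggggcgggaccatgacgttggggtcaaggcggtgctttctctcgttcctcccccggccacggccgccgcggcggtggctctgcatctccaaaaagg
Zfp36l1, GRCm38.p6 chr12:80112964-80113263, minus strand: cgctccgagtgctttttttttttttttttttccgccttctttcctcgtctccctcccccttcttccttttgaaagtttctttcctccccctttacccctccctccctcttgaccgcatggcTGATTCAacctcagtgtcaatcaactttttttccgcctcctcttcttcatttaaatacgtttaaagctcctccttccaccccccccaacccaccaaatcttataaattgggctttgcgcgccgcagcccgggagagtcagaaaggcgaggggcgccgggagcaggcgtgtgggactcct
Actl7b, GRCm38.p6 chr4:56741376-56741675, minus strand: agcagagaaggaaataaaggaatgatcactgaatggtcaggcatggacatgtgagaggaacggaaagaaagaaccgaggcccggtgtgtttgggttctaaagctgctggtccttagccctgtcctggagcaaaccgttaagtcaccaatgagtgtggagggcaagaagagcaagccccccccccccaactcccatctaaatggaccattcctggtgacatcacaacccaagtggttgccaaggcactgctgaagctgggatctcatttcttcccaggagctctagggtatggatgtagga
The Egln3 promoter held 1 CAGAC, the Zfp36l1 promoter 1 TGANTCA, and the Actl7b promoter neither. The palindrome GTCTAGAC was in 0 of the 3. Among 32851 RefSeq promoters of this length, 49.6% held CAGAC, 7.81% TGANTCA and 0.213% GTCTAGAC, so a CAGAC match is common in any promoter. Egln3 and Zfp36l1 had Smad3 and JMJD3 peaks within 1 kb of their TSS in these cells, and Actl7b, an actin-like gene of the testis, had neither. The promoters are RefSeq sequences of GRCm38.p6.

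Members were found on every chromosome. Of the 20185 remote intergenic Smad3 peaks, 39.0% (95% CI 38.4 to 39.7) lacked JMJD3, close to the 39.8% (39.5 to 40.1) of all Smad3 peaks. On the autosomes and X the share ran from 36.4% on chromosome 12 (33.6 to 39.2) to 46.8% on chromosome 17 (42.9 to 50.6), and the 1 remote peak on Y lacked JMJD3. These shares are fixed by the rule and describe it.

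Members lay at widely varying distances. Their median distance from a TSS was 116 kb, with quartiles of 74.0 and 206 kb, and the remote peaks with JMJD3 had a median of 124 kb and quartiles of 76.4 and 227 kb. Of the members, 42.3% lay 50 to 100 kb from the TSS, 31.7% at 100 to 200 kb, 20.6% at 200 to 500 kb and 5.38% beyond 500 kb. The share without JMJD3 was lowest at 200 to 500 kb. Over these 4 classes, in order of distance, it was 41.0% (39.9 to 42.0), 39.2%, 35.4% (34.0 to 36.8) and 38.7% (35.8 to 41.6) of remote peaks. Upstream of the closest TSS lay 4211 members (53.5%, 52.3 to 54.6), and the other 3667 lay past the gene's end, against 52.5% (51.6 to 53.4) upstream for remote peaks with JMJD3.

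The 5 members farthest from any gene start lay at least 1718 kb away. The most distant pair lay 2194 and 2083 kb upstream of Celf4, which encodes an RNA-binding protein of neurons, on chromosome 18. Next came a peak 1766 kb upstream of G6pd2 (chr5:60433961-60434390), 1 at 1728 kb upstream of Sel1l, a component of protein degradation at the endoplasmic reticulum (chr12:94815341-94815780), and 1 at 1718 kb past the start of Pcdh7, a protocadherin gene (chr5:59827361-59827700). The G6pd2 and Pcdh7 peaks lie in the same desert, on either side of the point where the closest start changes. All coordinates of peaks are on mm9.

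Members were narrow. Their median width was 320 bp (95% CI 320 to 320), against 381 bp (380 to 390) for remote peaks with JMJD3 and 351 bp for all Smad3 peaks. Only 2.16% were wider than 600 bp. A wider peak has more bases on which to meet a JMJD3 peak, so width and the rule are tied. The share of remote peaks without JMJD3 was 44.1% up to 200 bp, 49.0% at over 200 to 300 bp, 48.8% at over 300 to 400 bp, 31.5% at over 400 to 600 bp and 7.30% (6.27 to 8.43) above.

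The lists often split a broad stretch into several peaks, each starting at a position at most 10 bp above the last position of the one before. Joined across such gaps, the 7878 members formed 7116 regions, 6444 of them (90.6%) a single peak and 77 of 3 or more peaks. The 12307 remote peaks with JMJD3 formed 8793 regions, 69.8% of them single and 643 of 3 or more peaks. Regions over 1 kb numbered 30 (0.422%) without JMJD3 and 822 (9.35%) with it. The median region spanned 340 bp (340 to 350) without and 530 bp (521 to 540) with JMJD3.

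A few member regions were broad all the same. The widest spanned 1460 bp in 4 peaks, 120 kb past the start of Xirp2, an actin-binding protein gene of muscle (chr2:67402941-67404400). It was followed by 1430 bp at 338 kb past the start of Rragc, a GTPase of amino acid sensing (chr4:123931401-123932830), and 1340 bp at 112 kb upstream of H2afz, the histone variant H2A.Z (chr3:137415381-137416720). Src, the tyrosine kinase, had 1330 bp at 51.5 kb (chr2:157300801-157302130), and Grip1, a synaptic scaffold, 1291 bp at 128 kb upstream (chr10:119128621-119129911). All 4 Grip1 member regions lay inside a longer listed Grip1 transcript.

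**Figure D1:**
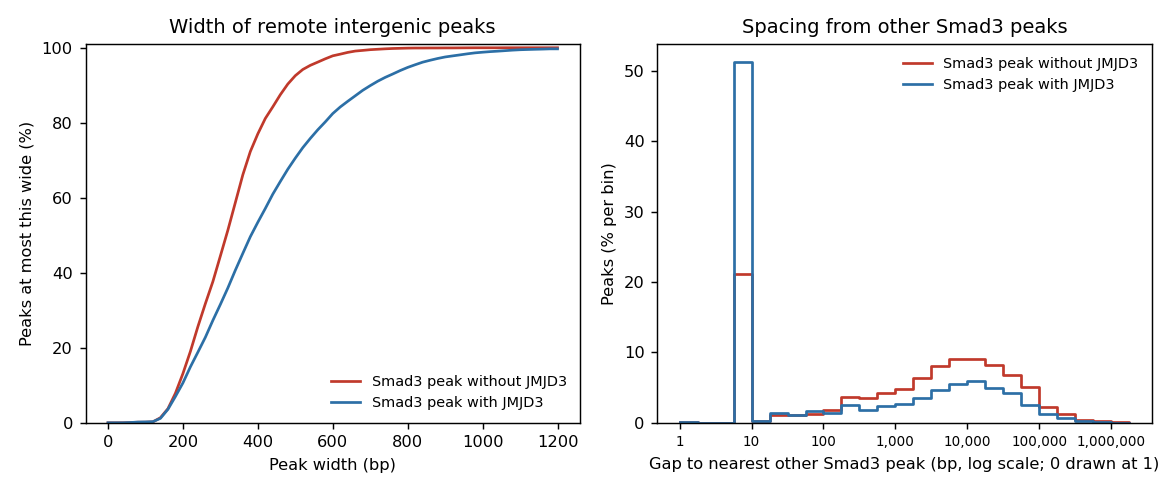
Remote intergenic Smad3 peaks without JMJD3 (red, 7878) and with JMJD3 (blue, 12307). Left, percent of peaks at most as wide as the value on the x axis in bp, where the red line rises earlier (median 320 against 381 bp). Right, percent of peaks per bin of the gap in bp to the nearest other Smad3 peak on a log axis, where the spike at 9 bp holds peaks split from the same stretch.

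Counted by peak as listed, members stood apart from other Smad3 peaks more often than the remote peaks with JMJD3 did. No other Smad3 peak lay within 10 kb of 2642 members (33.5%, 95% CI 32.5 to 34.6), against 2445 (19.9%, 19.2 to 20.6) of the remote peaks with JMJD3 and 14.9% of all Smad3 peaks. The median gap to the next Smad3 peak was 3305 bp for members and 9 bp for remote peaks with JMJD3. A Smad3 peak with at most 10 bp between was beside 1684 members (21.4%) and 6360 remote peaks with JMJD3 (51.7%). Such split peaks cannot count as apart, so the splitting enters both contrasts above. They were not recomputed without the split peaks. In stretches split in this way 20.9% of remote peaks lacked JMJD3, against 46.6% with the next Smad3 peak at 11 bp to 1 kb, 52.9% at 1 to 10 kb, 51.5% at 10 to 100 kb and 55.1% (51.1 to 59.1) beyond 100 kb.

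Members had a neighbour with JMJD3 less often. The nearest other Smad3 peak overlapped JMJD3 for 45.2% (44.1 to 46.3) of members and for 79.3% (78.6 to 80.0) of remote peaks with JMJD3, and for 65.4% of all Smad3 peaks. Touching peaks of a stretch share the same JMJD3 region and count here.

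The 5 members farthest from another Smad3 peak had at least 1484 kb to the next. The most isolated lay 521 kb from the start of Lrfn5, a synaptic adhesion molecule, with 2715 kb to the next Smad3 peak and 2714 kb to the next JMJD3 peak (chr12:63146641-63146970). A peak closest to Cdh12, a cadherin gene, had 1652 kb to the next Smad3 peak and 1449 kb to the next JMJD3 peak (chr15:21586161-21586390), and 1 closest to Pcdh17, a protocadherin gene, 1485 kb to either (chr14:83153001-83153520). ENSMUSG00000068790 had a member with 1720 kb to the next Smad3 peak and 1000 kb to JMJD3 (chr14:4519291-4519580). A member closest to Pet2 on X was isolated from Smad3 by 1484 kb but had a JMJD3 peak 2.88 kb away (chrX:86820251-86820700).

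The gaps between members and JMJD3 peaks varied widely. The gap to the nearest JMJD3 peak had a median of 9950 bp (95% CI 9510 to 10430). It was at most 100 bp for 349 members (4.43%), 100 bp to 1 kb for 997 (12.7%), 1 to 10 kb for 2600 (33.0%), 10 to 100 kb for 3411 (43.3%) and over 100 kb for 521 (6.61%). So 50.1% (49.0 to 51.2) of members had JMJD3 within 10 kb. Over all other Smad3 peaks that share was 88.6%. Most of those overlap JMJD3 and so count by definition, which makes the 88.6% no like reference for members. Over all Smad3 peaks without JMJD3, members included, 29415 of 39024 had no JMJD3 peak within 1 kb. Among members it was 6532 of 7878 (82.9%), a larger share, so JMJD3 was that near less often.

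**Figure D2:**
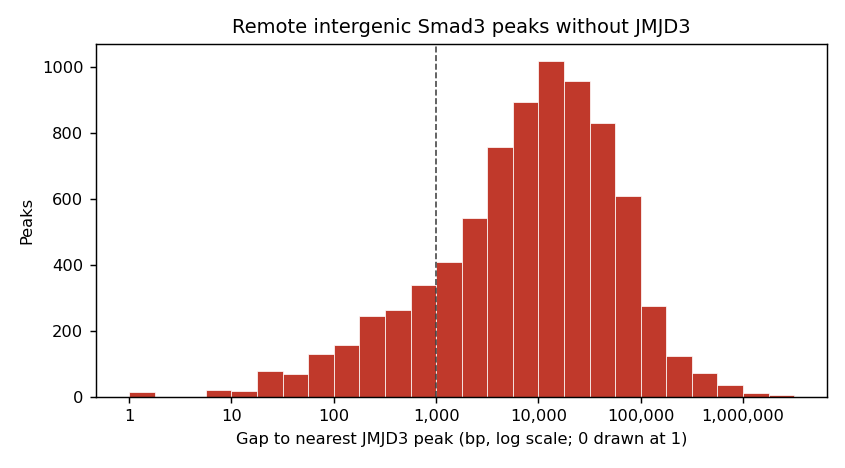
Number of remote intergenic Smad3 peaks without JMJD3 (y axis) by the gap in bp to the nearest JMJD3 peak (log x axis, gaps of 0 drawn at 1). The dashed line marks 1 kb, and the 1346 peaks to its left have a JMJD3 peak that near.

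A pair of arrays in which Smad3 regions repeated at an even step held the most member regions of any window of 100 kb. The first ran between Hrh1, the histamine H1 receptor gene, and Atg7, which encodes the E1-like enzyme of autophagy (chr6:114447381-114586790). It held 50 Smad3 regions over 139 kb, with a median step of 2460 bp between centres, and 38 of the 49 steps were within 15% of it. Only 1 of the 50 regions overlapped JMJD3, and 33 of them were member regions, the others not meeting the rule. The second array ran between Gas8, a gene of motile cilia, and Rhou (chr8:126062381-126147910). It held 57 Smad3 regions over 85.5 kb at a median step of 1690 bp, with 43 of 56 steps within 15% of it, and 15 of its regions overlapped JMJD3.

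These arrays were found after the data were seen. They were the only places where at least 2 even runs stood within 100 kb of each other. A run was 6 or more consecutive regions at a median step of up to 5 kb, with the largest and smallest step in a ratio of at most 1.35. Of 14 such Smad3 runs, 8 lay in the arrays, and the JMJD3 list had 1 run, at Sparc. The sequence was not read, and why the steps are even was not tested. The arrays hold 62 of the members (0.787%), and without them the share of remote peaks lacking JMJD3 was 38.9%.

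**Figure D3:**
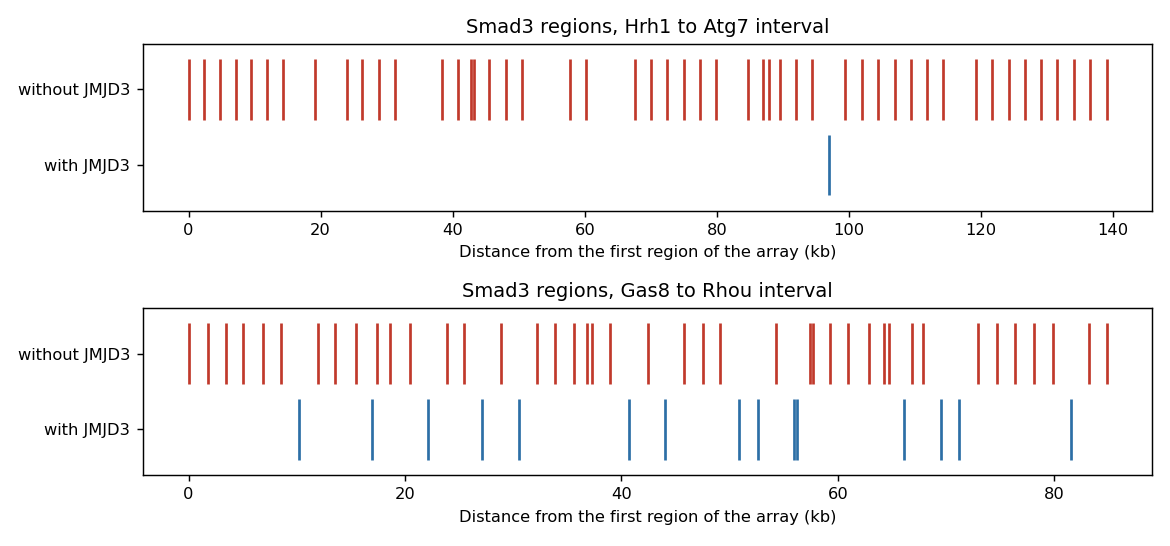
Smad3 regions of both arrays along the distance in kb from the first region, drawn as ticks, those without JMJD3 above (red) and those with JMJD3 below (blue). In the Hrh1 to Atg7 interval, 49 ticks are red and 1 blue, most of them about 2460 bp apart, and in the Gas8 to Rhou interval 42 are red and 15 blue.

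Members pointed to many genes with a few regions each. They named 2755 closest genes, 17.3% of the 15961 genes that were closest to any Smad3 peak. Of these 2755, 1256 (45.6%) had a single member region and the median was 2, while 72 genes had 10 or more and together took 939 regions (13.2%). Remote regions with JMJD3 named 2857 closest genes, 17.9% of the 15961. These included 1960 of the 2755 (71.1%), and 795 of the 2755 had no such region. How many regions a gene can collect depends on how much remote territory is closer to its TSS than to any other. Estimated from the 17753 TSS named in the files, that territory covered 1381 Mb in all, with 5.15 member regions and 6.37 regions with JMJD3 per Mb. TSS that no peak names are missing from it, so the territory of a gene is approximate.

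The closest gene with most member regions was Egln3, a prolyl hydroxylase that acts on the hypoxia factor HIF, with 26 regions without JMJD3 and 12 with it. The 26 lay 105 to 455 kb past the Egln3 start, and 25 of the 26 were inside Npas3, a bHLH-PAS transcription factor gene of the brain whose own start was farther away. With every listed gene span left out, Egln3 had 1 region and Wbscr17, named next, had 0. The 14 member regions closest to Wbscr17, a glycosyltransferase gene, were in the same way all inside Auts2, a gene of brain development. Zfp36l1 and Zfp36l2, whose products promote decay of AU-rich mRNAs, had 15 and 18 member regions, 4 of the first inside Rad51l1 and 4 of the second inside Thada. The other 16 of the 20 genes with most member regions had none inside a listed span. This ranking leaves out predicted genes and microRNAs, many of whose regions were inside another listed gene. Left out were 4930581F22Rik and 1700106J16Rik with 19 regions each, 18 and 19 of them inside another gene. Gm10125 had 18 regions with 15 inside, 9530091C08Rik 13 with 13 inside, and C130026L21Rik 13 with 0 inside.

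**Figure D4:**
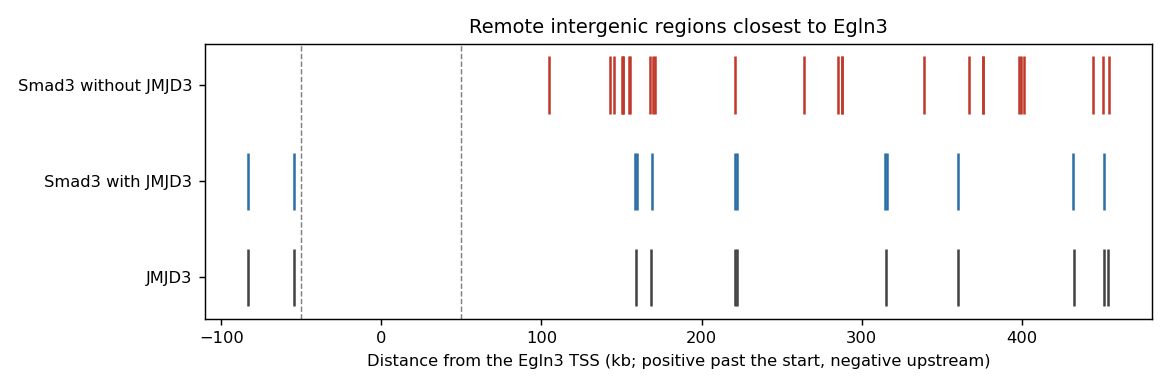
Remote intergenic regions closest to Egln3, as ticks at their distance in kb from the Egln3 TSS (positive past the start, negative upstream), with 26 Smad3 regions without JMJD3 on top (red), 12 Smad3 regions with JMJD3 in the middle (blue) and 11 JMJD3 regions below (grey). The dashed lines mark 50 kb on either side, and the red ticks lie between 105 and 455 kb.

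Several of these 20 genes encode regulators of transcription. Zmiz1, a coregulator of the PIAS family, had 16 member regions, all upstream at 64.2 to 331 kb, and 21 regions with JMJD3. Tbl1xr1, a subunit of the NCoR corepressor complex, had 15 and 19. Klf7 and Klf12, Kruppel-like factor genes, had 15 and 14 without JMJD3 and 10 each with it. Bach2, a repressor of the basic leucine zipper family, had 13 without and 15 with. Maml2, a coactivator of Notch, had 13 without and 3 with, all 13 within 50.7 to 94.3 kb upstream.

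Other genes at the top were of signalling, guidance and the cytoskeleton. Sema6d, a semaphorin of axon guidance, had 20 member regions at 120 to 776 kb and 31 with JMJD3. Trib2, a pseudokinase gene, had 17 of each kind. Lphn2, an adhesion receptor gene, had 15 and 19, and Svil, which encodes an actin-binding protein, 15 and 10. The zinc finger genes Zfp608 and Zswim6 had 22 and 18 without JMJD3, and 39 and 13 with it. The poly(A)-binding protein gene Pabpc6 had 24 and 16, Gsdmc, a gasdermin gene, 15 and 7, and Actl7b 13 and 14.

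Among these 20, Atg7 and Maml2 had most member regions per length of territory. Atg7 had 25 member regions and 0 with JMJD3, in 72.6 kb of territory, which is 34.4 per 100 kb. Maml2 had 28.9 per 100 kb, and the other 18 had at most 9.63, at Klf7. Both have less than 100 kb of territory, where densities can be high with few regions, as for Gas8 with 9 regions and 51.3 per 100 kb. The Atg7 regions are those of the evenly spaced array. In the RefSeq annotation of GRCm38.p6, the spans of Sema6d, Svil, Klf12, Maml2 and Bach2 were 520, 126, 141, 323 and 179 kb longer than in the files, and whether their regions lie inside the longer transcripts was not tested.

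**Figure D5:**
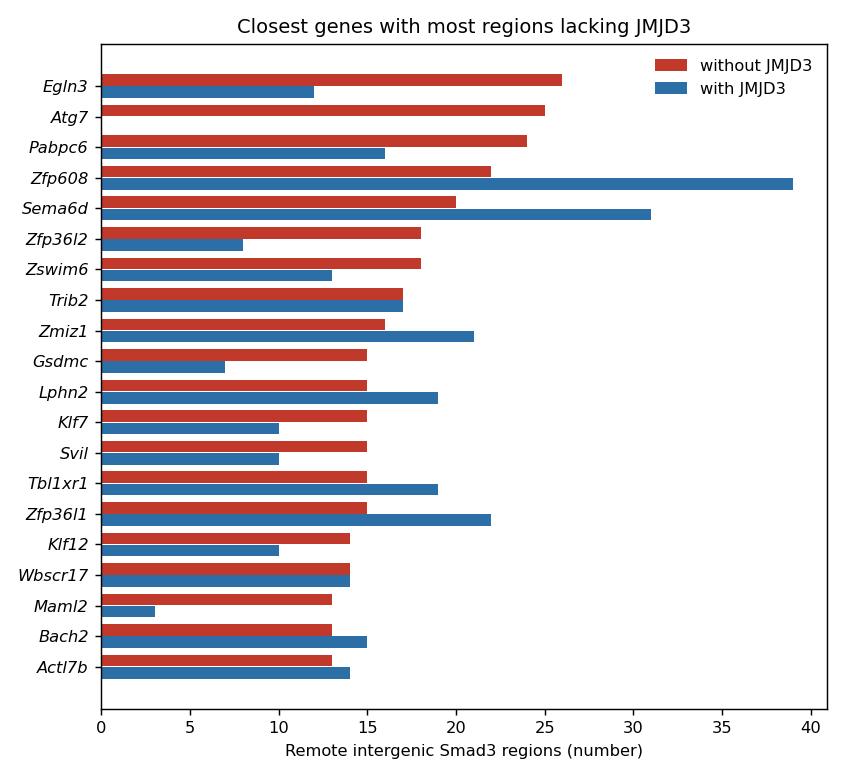
Number of remote intergenic Smad3 regions (x axis) for the 20 closest genes with most regions lacking JMJD3, without JMJD3 in red and with JMJD3 in blue below it. Predicted genes and microRNAs are left out. Atg7 has 25 red and 0 blue, and Zfp608 has 22 red and 39 blue.

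The share of remote regions lacking JMJD3 is uncertain for any single gene, since regions are few. Among the 282 genes with 12 or more remote Smad3 regions, the median share without JMJD3 was 43.1%, with quartiles of 35.3% and 52.6%. At the low end were Meis1, a homeobox gene, with 0 of 13 (95% CI 0 to 24.7), and Fgfr2, an FGF receptor gene, with 0 of 12 (0 to 26.5). Foxn3, a forkhead factor gene, had 1 of 12 (8.33%). At the high end were Atg7 with 25 of 25 (86.3 to 100), Klhl25 with 10 of 12 (51.6 to 97.9; 3 of the 10 inside another listed gene), Maml2 with 13 of 16 (54.4 to 96.0) and the array gene Gas8 with 9 of 12 (42.8 to 94.5). These genes were picked as the ends of a range.

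The densest windows were counted over 100 kb. The Hrh1 to Atg7 window held 34 member regions, 33 of them in the array, and the Gas8 to Rhou window 18. Next were windows closest to Pabpc6 with 16 (chr17:9915571-9970181), at E130114P18Rik and Nfia with 15 (chr4:97301361-97377510) and at Fam92b and Gse1 with 15 (chr8:122805411-122905560). Nfia encodes a nuclear factor I protein of gliogenesis. The last 3 windows also held 5, 7 and 8 remote Smad3 regions with JMJD3, and the Hrh1 to Atg7 window held 0. All 11 member regions of E130114P18Rik lay inside another listed gene, and 4 of the 12 of Nfia inside a longer Nfia transcript. How many of these fell in the window was not counted. Pabpc6, Fam92b and Gse1 had 0 member regions inside a listed span.

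The share of members whose closest promoter carried Smad3 was near that of the remote peaks with JMJD3 and below that of all Smad3 peaks. The closest gene had a Smad3 peak within 1 kb of its TSS for 5587 members (70.9%, 95% CI 69.9 to 71.9), and promoter peaks of both factors for 4369 (55.5%, 54.4 to 56.6). For remote peaks with JMJD3 the shares were 72.4% (71.6 to 73.2) and 57.7% (56.8 to 58.5), and for all Smad3 peaks, which include the promoter peaks themselves, 82.2% and 66.1%. Counted by gene, 51.6% of the 2755 closest genes had both at the promoter, 15.4% Smad3 alone, 1.05% JMJD3 alone and 32.0% neither, where the shares of all 15961 genes were 56.8%, 18.5%, 1.02% and 23.8%. Of all 15961, 75.2% had a Smad3 promoter peak. Among the 20 genes with most member regions, 11 had both, 2 (Atg7 and Maml2) Smad3 alone, 1 (Svil) JMJD3 alone and 6 neither.

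MicroRNA genes were closest to 190 member regions, at 71 genes. A microRNA was the closest gene of 2.60% of members, 2.96% of remote peaks with JMJD3 and 1.84% of all Smad3 peaks. The mature sequences are shown for the 3 with 10 or more, with the seed, bases 2 to 8, in capitals.
mmu-miR-582-5p: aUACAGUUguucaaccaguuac
mmu-miR-582-3p: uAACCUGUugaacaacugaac
mmu-miR-205-5p: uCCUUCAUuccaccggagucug
mmu-miR-205-3p: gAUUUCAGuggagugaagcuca
mmu-miR-29b-3p: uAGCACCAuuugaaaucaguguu
mmu-miR-29b-1-5p: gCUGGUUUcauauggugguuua
No seed is shared among them. Mir582 had 11 member regions at 62.5 to 285 kb, all 11 inside another listed gene, and 14 with JMJD3. Mir205, known from epithelia, had 10 at 53.6 to 445 kb and 5 with JMJD3, and Mir29b-1 had 10 at 70.8 to 159 kb and 3. None of the 3 had a promoter peak. The sequences are from RefSeq on GRCm38.p6.

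Genes of the TGF-beta pathway had members at 19 of the 44 that were closest to any Smad3 peak (43.2%), 73 regions in all. Remote regions with JMJD3 were also listed at 19 of the 44. The background is 17.3% of all genes, and 61.1% of the 2729 genes with over 100 kb of remote territory, where the pathway had 13 of 14. Smad2, the other receptor-activated Smad of the pathway, had 10 member regions at 80.4 to 205 kb and 8 with JMJD3, and 5 of the 10 were inside another listed gene. The corepressor gene Tgif1 had 7 at 65.4 to 140 kb, 6 of them inside another listed gene, and Ctgf, a matricellular target gene, 7 at 70.5 to 185 kb, each with 6 more that carried JMJD3. Zeb2, a Smad-interacting repressor gene, had 7 at 92.7 to 1552 kb and 8 with JMJD3. The BMP, activin and GDF list had 10 of 30 (33.3%), and 8 of 13 among genes with over 100 kb. In it the receptor gene Acvr2a and the activin subunit gene Inhba had 6 each, and Smad1 and Bmp7 had 4 each, with 8, 2, 1 and 0 regions that carried JMJD3.

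Neural stem and progenitor genes had members at 18 of 37 (48.6%), and at 12 of the 18 with over 100 kb of territory (66.7%). Over all genes these shares were 17.3% and 61.1%. Remote regions with JMJD3 were listed at 22 of the 37. Slc1a3, the glutamate transporter of radial glia, and Hmga2, a chromatin protein gene of fetal stem cells, had 9 each, with 5 each that carried JMJD3. Sox9, a factor of neural stem cells and glia, had 6 at 50.9 to 207 kb and 7 with JMJD3, and Nr2f1, a patterning factor, 6 at 228 to 1201 kb and 10 with JMJD3. Neurogenic and patterning transcription factors had 32 of 57 (56.1%), and 27 of 34 with over 100 kb. Sox11 and Nfia had 12 each, Sox4 11 and Pou3f1 9, with 11, 13, 18 and 9 that carried JMJD3. Of the Nfia regions 4 lay inside a longer Nfia transcript, and of the Sox4 regions 3 inside another listed gene. Sox11 and Sox4 encode factors of newborn neurons.

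The synaptic adhesion and cadherin lists had the largest territories. The synaptic adhesion list had members at 31 of 39 genes (79.5%, 63.5 to 90.7), and at 30 of 35 with over 100 kb. All genes had members at 17.3%, and those with over 100 kb at 61.1%. The median territory was 1225 kb in this list and 1031 kb in the cadherin list, against a median of 0 kb over all genes. After Lphn2 came Ncam1 with 13 (19 with JMJD3), Lrrc4c with 11 (9 with JMJD3) and Odz2 with 7 (3 with JMJD3). Cadherins and protocadherins had 16 of 30 (53.3%), and 15 of 23 with over 100 kb. Cdh5, the cadherin of endothelium, had 8 member regions and 3 with JMJD3, Fat1 4 and 2, Cdh11 3 and 7, and Cdh13 3 and 3. Axon guidance genes had 19 of 39 (48.7%), and 16 of 22 with over 100 kb, led by Sema6d, the co-receptor gene Nrp2 with 10 and the ephrin system genes Efnb2 with 8 and Epha4 with 7. Of the 10 Nrp2 regions 9 were inside another listed gene.

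Among genes with over 100 kb of territory, those of mature neurons and of the nose had members at smaller shares than all such genes. Ion channel and neurotransmitter receptor genes had members at 14 of 39 (35.9%, against 17.3% of all genes). Of the 28 with over 100 kb, 11 had members (39.3%), below the 61.1% of all such genes. The glutamate receptor gene Gria2 had 4, Kcnj6 3, and Gria1 and Grm3 2 each. Of the 1484 gene IDs in the olfactory and vomeronasal receptor list, only 86 were closest to any Smad3 peak. Members were at 9 of these 86 (10.5%, 4.90 to 18.9), and at 5 of 40 with over 100 kb. Vmn2r121 had 5, and Olfr1402, Olfr161 and Vmn2r18 2 each, with 9, 2, 0 and 8 that carried JMJD3.

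Genes of growth factor, Wnt and early response pathways were counted in the same way. The shares beside them are 17.3% of all genes and 61.1% of those with over 100 kb of territory. The receptor tyrosine kinase list had members at 17 of 32 (53.1%), and at 14 of 19 with over 100 kb. Spry2 and Spry4, feedback inhibitors of the kinase cascade, had 10 each, with 15 and 5 that carried JMJD3. Etv5, an ETS factor that responds to FGF, had 8 and 6, with 6 of the 8 inside another listed gene, and the ligand gene Nrg1 5 and 4. The Wnt list had 17 of 35 (48.6%), and 11 of 15 with over 100 kb. The receptor gene Fzd1 had 9 and 9, and Ctnnb1, Tcf7l2 and Tle4 had 6 each against 11, 15 and 14 with JMJD3. Inside another listed span lay 7 of the 9 Fzd1 regions, 3 of the 6 of Ctnnb1 and 4 of the 6 of Tcf7l2. Immediate early genes had 13 of 29 (44.8%), and 7 of 8 with over 100 kb. Klf6 had 8 and 17, Klf4 7 and 11, Myc 7 and 2, and Jun 4 and 8.

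Transcription factors of non-neural lineages had members at 15 of 36 (41.7%), and at 14 of 21 with over 100 kb (66.7%). Over all genes these shares were 17.3% and 61.1%. Sall3 had 7, Foxa2 6, and Foxp1 and Foxc1 5 each, with 7, 4, 1 and 4 that carried JMJD3. All 5 Foxc1 regions lay inside another listed gene, and 3 of the 5 Foxp1 regions inside a longer Foxp1 transcript. Over the 13 lists, the share of remote regions lacking JMJD3 ran from 36.5% in the Wnt list to 50.9% in the BMP list, around the 44.7% of all remote regions, where members and peaks with JMJD3 were joined separately. Remote regions with JMJD3 were listed at 19 TGF-beta, 11 BMP, 22 neural stem, 37 neurogenic, 29 synaptic adhesion and 18 cadherin genes. They were also listed at 20 axon guidance, 13 ion channel, 9 sensory receptor and 21 receptor tyrosine kinase genes. The Wnt, immediate early and non-neural lists had 18, 13 and 19 such genes. The median number of member regions per gene was 1 in the cadherin, synaptic adhesion, neurogenic and receptor tyrosine kinase lists and 0 in the other 9, as over all genes. Depth is unknown, and its part in these counts was not tested.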

How the data were processed

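The peaks are on mm9, and CASAVA, Bowtie 0.12.7 and MACS 1.4 were used, per the submitters' processing notes. What each did, which thresholds were set and whether input DNA served as control is not given in the sources used here. Per the file headers, the deposited lists hold 1 row per peak with its edges, the signed distance from the closest RefSeq TSS to the midpoint, and that transcript's span and gene. Peaks were listed per library.

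Overlaps, gaps between edges and regions were computed in Python 3.11.15 with pandas 2.3.3, and overlaps and gaps were checked on simulated intervals. A region joined peaks that start at a position at most 10 bp above the last position of the one before. Listed distances were recomputed within 3.5 bp. Shares carry exact Clopper-Pearson 95% intervals, made with scipy 1.17.1, and medians order-statistic intervals, both for counting error only. The lists hold no peak score, so width took its place. No tests were run, since each antibody has 1 library. Remote territory was computed from the TSS named in the files, outside the transcript listed with each.

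The peaks and the 13 gene lists were chosen with earlier results of these data known. Genes were named by rule: the 20 with most member regions, the 5 widest, farthest and most isolated members, the 5 densest windows and up to 4 per list, without predicted genes and microRNAs. The microRNAs, the arrays, the territory and the genes at either end of the JMJD3 share were chosen after their values were seen. Gene names were matched by Entrez ID to RefSeq tables of GRCm38.p6, which gave the promoter and microRNA sequences, and 15 of the 20 genes had a promoter there. Alternatives covered distance, overlap, joining, width and gene spans.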

Additional observations from a re-analysis of the deposited data

How the results depend on the processing

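Limits come first from the lists, which carry no score, so a peak that missed the threshold in the JMJD3 library counts as lacking JMJD3. The number of members fell to 4544 with a distance above 100 kb and to 2939 in the widest 50% of Smad3 peaks, and stayed within 1.5 times of 7878 under the other alternatives. The share of remote peaks without JMJD3 (39.0%) was 37.7% above 100 kb, 32.4% with a JMJD3 peak within 1 kb counted as shared, 42.8% with overlap of 50% or more required, 43.8% when all touching Smad3 peaks were joined whether or not they carried JMJD3, and 29.5% in the widest 50%. The median width (320 bp) was 321 bp with JMJD3 within 1 kb, 341 bp by joined regions and 421 bp in the widest 50%. The share with no other Smad3 peak within 10 kb (33.5%) was 37.5%, 39.6%, 31.0%, 41.8% and 51.8% under the same alternatives in that order, and 35.5% outside every listed gene span. Under these alternatives it was not computed for remote peaks with JMJD3. The share whose closest gene has a Smad3 promoter peak (70.9%) was 63.2% in the widest 50% and within its interval otherwise. Fewer peaks enter above 100 kb and in the widest 50% by construction. Counting JMJD3 within 1 kb as shared can only lower the share without JMJD3, and requiring 50% overlap can only raise it. Joining takes away touching neighbours. In the widest 50%, both the gaps to other Smad3 peaks and the Smad3 promoter peaks were taken from the wide peaks only. The cause of the other shifts was not tested. Of the 20 genes with most regions, 6 changed by over 1.5 times above 100 kb, 6 with JMJD3 within 1 kb, 18 in the widest 50%, 2 (Egln3 and Wbscr17) outside every span and 0 by joined regions or with overlap of 50% or more required. Without the arrays, an alternative added after the data were seen, all 5 values stayed within their limits, and Atg7 alone of the 20 genes changed by over 1.5 times. No paired analysis was possible because there is 1 library per antibody.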

Other observations

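Besides both arrays, 6 short runs of evenly spaced Smad3 regions were listed, of 6 regions each. They were closest to Igfbp5 at a median step of 775 bp, Irgm1 at 1040 bp, Arid2 at 795 bp, Ddx20 at 4755 bp, Ifnz and its neighbours at 2939 bp, and Rn4.5s at 4764 bp. In the Hrh1 to Atg7 array member regions had a median width of 370 bp, and in the Gas8 to Rhou array 510.5 bp, against 340 bp for all member regions. The JMJD3 list had 1 region in the first array and 14 in the second.

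Of all 63154 JMJD3 peaks, wherever they lie, 3624 were remote, intergenic and without a base shared with a Smad3 peak. The share of all JMJD3 peaks without Smad3 is not given here, so this count has no reference.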
